A study of Homo sapiens with 6 samples.

Results

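KDELC2 (now named POGLUT3), the related protein O-glucosyltransferases KDELC1 (now POGLUT2) and POGLUT1, and 7 genes of the Notch pathway were followed in MCF10A, a human breast epithelial cell line that is immortal but does not form tumours. The 10 genes were taken by name from a table of 27914 genes. They are the 3 glucosyltransferases, the receptors NOTCH1, NOTCH2 and NOTCH3, the ligands JAG1 and JAG2, and the Notch target genes HES1 and HEY1. The set was chosen by the measured fall of KDELC2 between these same groups, so the differences of the 10 genes between the groups are given as a description, with no test. The study compared 3 libraries whose genotype is given as α-/-;βin (PI5P4K-depleted cells in what follows) with 3 libraries labelled SCRin control with a wild-type genotype. All 6 had received doxycycline for 3 days, the controls included. Libraries were made from 250 ng of RNA. The series title names PI5P4K, so α and β were read as the enzymes encoded by PIP4K2A and PIP4K2B. The labels do not expand SCR or in, and do not say whether the PI5P4K-depleted cells are 1 clone or whether replicates came from separate cultures, so the spread between replicates may be technical.

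Protein O-glucosyltransferases sit in the endoplasmic reticulum and attach glucose to serines of epidermal growth factor-like (EGF) repeats, the small cysteine-bonded modules that make up most of the outer part of Notch receptors and their ligands. POGLUT1 modifies a serine near the start of many such repeats, a step that Notch signalling needs in flies and mice, while POGLUT2 and POGLUT3 modify a serine elsewhere in the repeat, in Notch receptors and in the fibrillin and latent TGF-beta binding proteins of the matrix. When a ligand on one cell binds a Notch receptor on its neighbour, the receptor is cut by ADAM proteases and then by gamma-secretase, and its freed inner part joins RBPJ in the nucleus to switch on genes such as those of the HES and HEY repressors.

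Expression was deposited as TPM, a measure of transcript abundance that is scaled for gene length and to 1 fixed total per library, and keeps no read depth. The targeted genes matched the labels, with PIP4K2A at 4.20 ± 0.132 TPM in PI5P4K-depleted cells and 20.6 ± 1.02 TPM in controls (SD, n = 3 each), and PIP4K2B at 9.49 ± 1.83 TPM in PI5P4K-depleted cells and 21.8 ± 1.21 TPM in controls. Their log2 differences were -2.05 and -1.13 (limma adjusted p = 0.000847 and 0.00985), and PIP4K2B missed the threshold when control replicate 3 was left out (adjusted p = 0.0602). Between 11859 and 12116 genes reached 1 TPM in a library. All 8 genes listed as breast epithelial markers passed the filter on low values (a mean of at least 1 TPM over the 6 libraries). Their summed level was 2821 to 4852 TPM in PI5P4K-depleted libraries and 2601 to 5305 TPM in controls. Of these 8, 1 was called higher, EPCAM, and it is not read here as a marker of basal cells. Of 7 fibroblast markers COL1A1 and DCN passed the filter, and COL3A1 was at 0 in all 6 libraries. The fibroblast markers had a summed level of 2.73 to 6.13 TPM in PI5P4K-depleted libraries and 1.96 to 6.32 TPM in controls. Of 6 blood and endothelial markers CD14 alone passed, and PTPRC was at 0 in all 6 libraries (sums of 7.25 to 9.62 TPM in PI5P4K-depleted libraries and 2.64 to 6.57 TPM in controls). Of 4 hormone-responsive luminal markers FOXA1 alone passed (sums of 4.63 to 6.63 TPM in PI5P4K-depleted libraries and 1.95 to 4.78 TPM in controls). Among the genes of the last 3 lists that passed the filter, 0 were called by limma, against 2.19% of all tested genes. Of them 2, CD14 and FOXA1, had an unadjusted p under 0.05, against 11.9% of all tested genes. The part of these levels in the results was not tested. In bulk RNA, fewer cells expressing a gene and less of its RNA per cell cannot be told apart.

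KDELC2 was nearly absent from PI5P4K-depleted cells. It measured 0.0822, 0.110 and 0.0751 TPM in PI5P4K-depleted replicates 1 to 3, against 35.1, 29.1 and 29.9 TPM in control replicates 1 to 3. All 3 PI5P4K-depleted libraries stood far below all 3 controls, and no library of either group lay between them. The PI5P4K-depleted mean was 0.284% of the control mean, a ratio of 352 between the means. On the log2(TPM + 1) scale used for the comparison across all genes the difference was -4.89 (SE 0.14), and as a log2 ratio of the mean TPM it was -8.46. The first scale understates the change because the added 1 is larger than the level that remained. Among 12096 tested genes, 2 had a lower log2 difference, the small nucleolar RNAs SNORD45A and SNORA17B. They were listed at 0 in all PI5P4K-depleted libraries, and SNORD45A was also at 0 in control replicate 2, against 150.3 and 287 TPM in control replicates 1 and 3.

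The other glucosyltransferase genes had mean levels above those of controls. KDELC1, the closest relative of KDELC2, measured 13.3, 14.2 and 16.4 TPM in PI5P4K-depleted replicates 1 to 3, against 12.9, 11.7 and 12.6 TPM in controls. The lowest PI5P4K-depleted library lay just above the highest control, and the log2 difference was 0.22 (SE 0.12). POGLUT1 measured 10.7, 15.9 and 12.4 TPM in PI5P4K-depleted libraries and 9.19, 10.97 and 9.62 TPM in controls, with overlap between PI5P4K-depleted replicate 1 and control replicate 2 (log2 difference 0.34, SE 0.16).

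The make-up of the family was unlike between the groups. KDELC2 gave 0.322% ± 0.0551 of the summed TPM of the 3 genes in PI5P4K-depleted cells and 58.4% ± 2.71 in controls (SD, n = 3 each). KDELC1 gave 53.0% ± 5.25 in PI5P4K-depleted cells and 23.1% ± 0.921 in controls, and POGLUT1 46.6% ± 5.21 in PI5P4K-depleted cells and 18.6% ± 2.56 in controls. Shares of a sum must rise for KDELC1 and POGLUT1 together when that of KDELC2 falls, so nothing further is read from them. The sum itself was 27.7 ± 3.22 TPM in PI5P4K-depleted cells and 53.7 ± 3.01 TPM in controls. KDELC1 and POGLUT1 together measured 24.0, 30.1 and 28.8 TPM in PI5P4K-depleted replicates 1 to 3, against 22.1, 22.7 and 22.2 TPM in controls. Every PI5P4K-depleted sum was above every control sum, by the least for PI5P4K-depleted replicate 1.

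**Figure D1:**
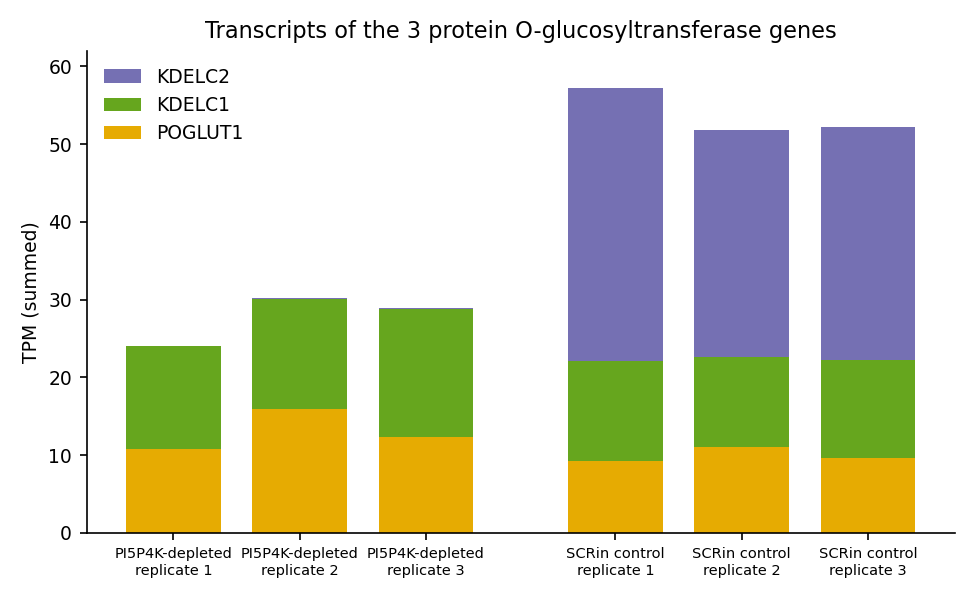
Stacked bars of TPM of KDELC2, KDELC1 and POGLUT1 in each of the 3 PI5P4K-depleted and 3 SCRin control libraries, with no error bars because each bar is 1 library. The KDELC2 segment makes up 0.260% to 0.365% of the PI5P4K-depleted bars, where it is too thin to see, and 56.2% to 61.4% of the control bars.

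The promoters of KDELC2 and KDELC1 are shown because the one gene was nearly absent and the other was not. They are the 250 bases before the RefSeq start (GRCh38.p14), written 5′ to 3′ on the gene's strand, with CG dinucleotides in capitals. KDELC2 lies at chr11:108498385-108498634, minus strand, and KDELC1 at chr13:102798977-102799226, minus strand.
KDELC2: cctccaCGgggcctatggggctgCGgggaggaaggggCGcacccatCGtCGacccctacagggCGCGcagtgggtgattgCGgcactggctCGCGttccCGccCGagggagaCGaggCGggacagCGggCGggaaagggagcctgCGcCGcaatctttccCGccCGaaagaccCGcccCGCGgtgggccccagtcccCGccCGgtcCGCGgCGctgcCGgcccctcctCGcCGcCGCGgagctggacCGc
KDELC1: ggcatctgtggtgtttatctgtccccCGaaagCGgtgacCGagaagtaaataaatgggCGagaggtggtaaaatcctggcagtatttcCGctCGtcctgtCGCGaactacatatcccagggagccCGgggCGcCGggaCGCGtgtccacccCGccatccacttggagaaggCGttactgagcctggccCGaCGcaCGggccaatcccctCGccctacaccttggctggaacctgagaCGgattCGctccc
The KDELC2 window holds 34 CG dinucleotides and the KDELC1 window 21, against a median of 11 over 35116 RefSeq promoters of the same length. Of those promoters 93.2% hold fewer than KDELC2 and 69.8% fewer than KDELC1. A high count was not particular to KDELC2 among the chosen genes. JAG2 held 38, NOTCH1 33, NOTCH2 29, NOTCH3 28, HES1 18, JAG1 17 and POGLUT1 13, and HEY1 had no matched promoter. No methylation or chromatin was measured here, so these counts describe the sequence alone.

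The tested neighbours of KDELC2 on chromosome 11 had levels close to those of controls. Of the 5 tested genes on each side in the RefSeq order, 0 of 10 passed limma's test across all genes (adjusted p under 0.05), against 2.19% of the 12096 genes tested, and 1 of 10 had an unadjusted p under 0.05, against 11.9% of the genes tested. Their log2 differences lay between -0.27 and 0.28, with a median of 0.05. ATM, the DNA damage kinase on one side, measured 13.2 ± 3.34 TPM in PI5P4K-depleted cells and 15.9 ± 1.74 TPM in controls (log2 difference -0.27, limma adjusted p = 0.662). EXPH5, an effector of the GTPase RAB27B on the other side, measured 1.84 ± 0.605 TPM in PI5P4K-depleted cells and 1.66 ± 0.566 TPM in controls (log2 difference 0.09, limma adjusted p = 0.948).

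ACAT1, the mitochondrial acetoacetyl-CoA thiolase, was the neighbour with groups that did not overlap, at 102 ± 6.51 TPM in PI5P4K-depleted cells and 84.7 ± 6.58 TPM in controls (log2 difference 0.27, limma adjusted p = 0.315). NPAT, a regulator of histone genes that shares its start region with ATM, had a log2 difference of 0.03, CUL5, a ubiquitin ligase scaffold, 0.06, and SLC35F2, a solute carrier, -0.05. Beyond EXPH5, the RNA helicase gene DDX10 had a log2 difference of 0.06, the RNase gene ZC3H12C 0.05, the cytoskeletal linker gene RDX 0.01 and the ferredoxin gene FDX1 0.28. C11orf65, the listed gene next to KDELC2 on the ATM side, lay below the filter on low values at 0.131 to 0.625 TPM in PI5P4K-depleted libraries and 0 to 0.573 TPM in controls. RefSeq also places 1 uncharacterised locus, LOC124902749, over KDELC2. The sources used here do not say whether reads kept their strand.

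**Figure D2:**
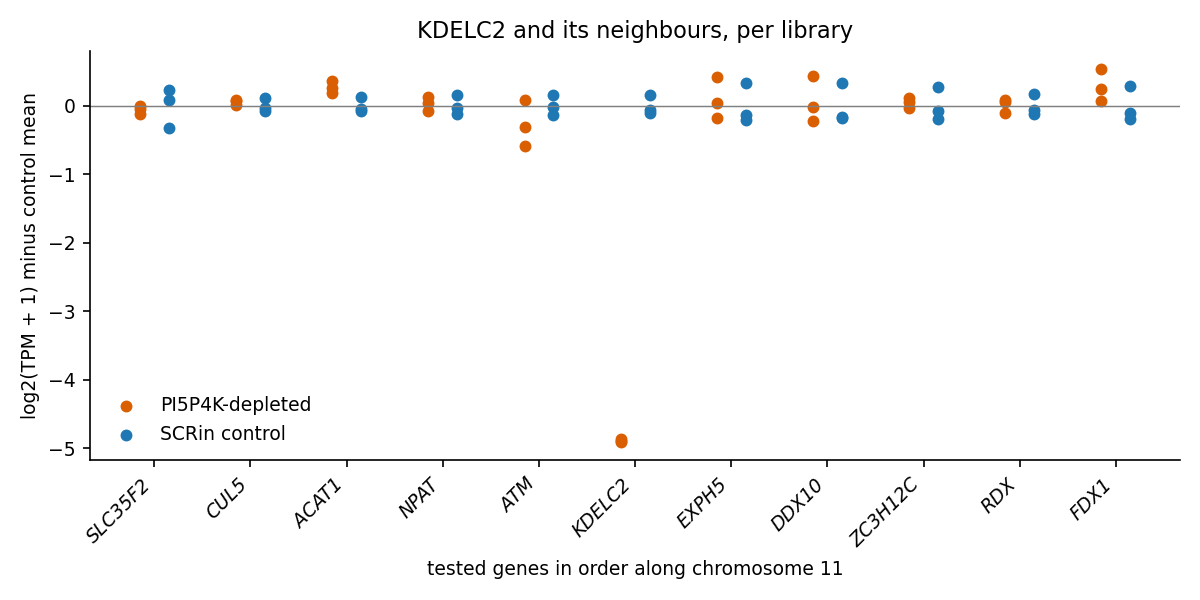
Log2(TPM + 1) minus the control mean for KDELC2 and the 5 tested genes on each side of it, in gene order along chromosome 11 and not to scale, with 1 point per library and PI5P4K-depleted libraries left of SCRin controls. KDELC2 alone sits near -4.89 in the 3 PI5P4K-depleted libraries, and the mean differences of the 10 neighbours lie between -0.27 and 0.28.

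The genes whose pattern over the 6 libraries was nearest to that of KDELC2 lay at some distance from it. Likeness was measured as the Euclidean distance between log2(TPM + 1) values taken relative to the control mean, over 9727 other genes with a control mean of at least 5 TPM. The nearest was SNORA17B, at a distance of 1.71 log2 units and listed at 0 in all PI5P4K-depleted libraries, against 94.4, 20.5 and 16.7 TPM in controls. The next, CDA, the cytidine deaminase, at a distance of 3.43, kept 5.02, 8.06 and 8.69 TPM in PI5P4K-depleted libraries, against 52.1, 64.6 and 69.7 TPM in controls. They were followed by the histone gene HIST1H4J (distance 3.51), the long noncoding RNA UCA1 (4.15) and the microtubule-associated protein gene MAP1B (4.42). None of the 5 lies on chromosome 11.

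Among the 10 chosen genes, 8 passed the filter and entered the fit, and NOTCH3 and HEY1 did not. KDELC2, KDELC1, NOTCH1 and JAG1 had groups that did not overlap, the last 3 with the PI5P4K-depleted libraries above. Of all tested genes, 17.1% had such groups, with 5.64% of all tested genes higher and 11.4% lower in PI5P4K-depleted cells. The choice of genes used this comparison, so nothing is read from these counts. Apart from KDELC2, the differences of the 10 genes lay between -0.05 for HEY1 and 0.72 for HES1 on the log2(TPM + 1) scale, beside a median of -0.01 and quartiles of -0.16 and 0.11 over all tested genes.

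**Figure D3:**
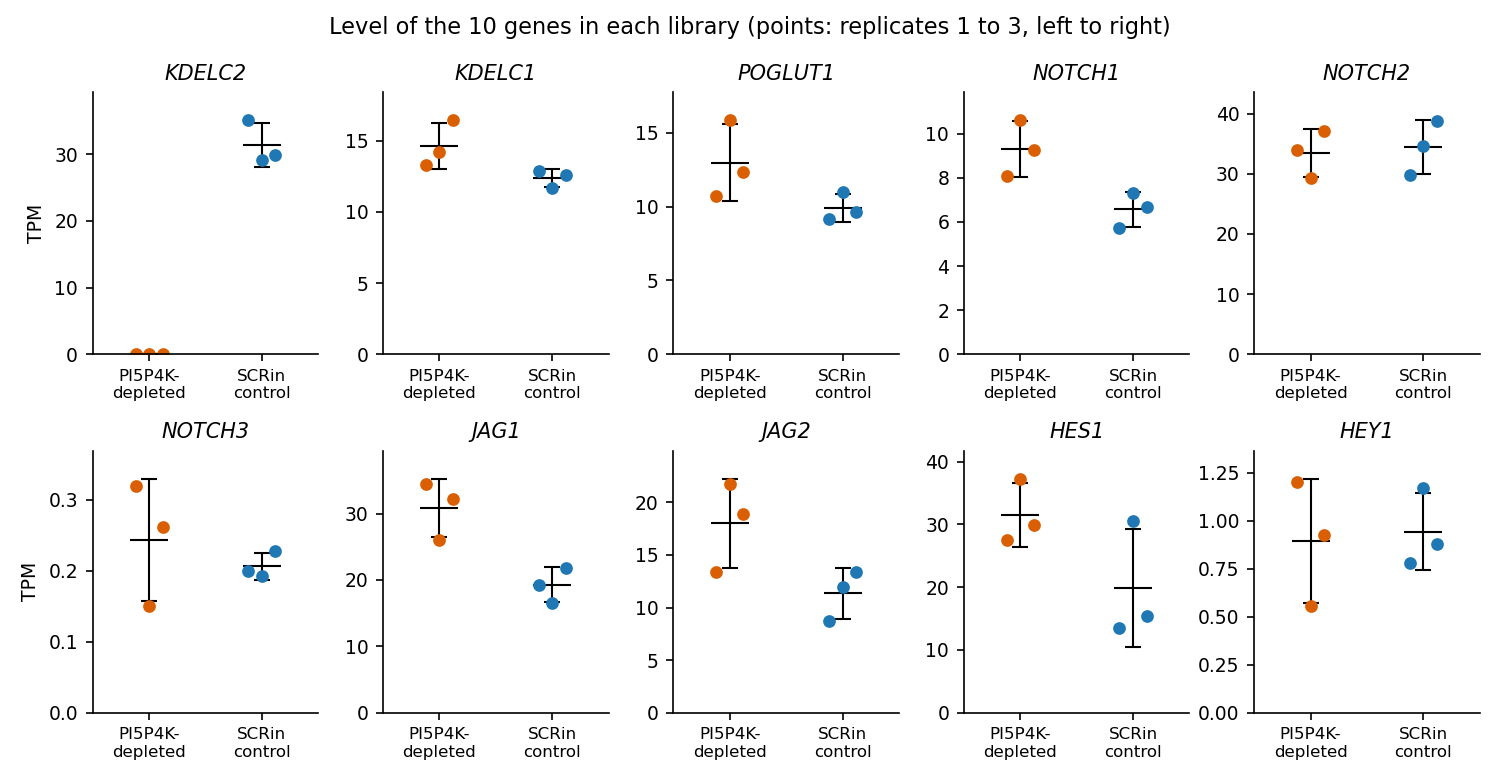
TPM of each of the 10 genes in PI5P4K-depleted libraries (left) and SCRin controls (right), with points for replicates 1 to 3 and bars for the mean ± SD (n = 3 each), on axes that start at 0 and differ between panels. KDELC2 averaged 0.0892 TPM in PI5P4K-depleted cells and 31.4 TPM in controls, while HES1 in control replicate 2, at 30.6 TPM, stands apart from the other controls.

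Of the receptors, NOTCH2 was the most abundant, and NOTCH1 was the one whose groups did not overlap. NOTCH1 measured 8.08, 10.6 and 9.28 TPM in PI5P4K-depleted replicates 1 to 3, against 5.73, 7.33 and 6.67 TPM in controls, so that every PI5P4K-depleted library lay above every control (log2 difference 0.44, SE 0.15). NOTCH2 measured 33.95, 29.2 and 37.1 TPM in PI5P4K-depleted libraries and 29.8, 34.6 and 38.8 TPM in controls, and the groups overlapped throughout (log2 difference -0.04, SE 0.13). NOTCH3 was close to absent, at 0.320, 0.150 and 0.261 TPM in PI5P4K-depleted libraries and 0.199, 0.192 and 0.228 TPM in controls. NOTCH1 gave 21.8% ± 4.10 of the summed TPM of these receptors in PI5P4K-depleted cells and 16.005% ± 1.40 in controls.

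The NOTCH2 value carries an uncertainty of counting. NOTCH2 has near-identical partial copies, the NOTCH2NL genes, and 24.6% of the 50-base words of its protein-coding GENCODE v29 transcripts also occur in transcripts of other genes. The share was 7.22% for JAG2, 1.64% for KDELC2 and 1.14% for KDELC1, and 0 for the other 6 genes. In the deposited table the copy NOTCH2NLR measured 30.6, 38.4 and 41.2 TPM in PI5P4K-depleted libraries and 30.6, 41.8 and 49.6 TPM in controls, levels like those of NOTCH2 itself. NOTCH2 and the 4 NOTCH2NL genes summed to 79.8 ± 5.84 TPM in PI5P4K-depleted cells and 84.3 ± 12.4 TPM in controls, a difference smaller than the spread between replicates. The sum leaves out NBPF19, the gene that shared the most words with NOTCH2.

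Both Jagged ligands, which bind Notch receptors on neighbouring cells, averaged more in PI5P4K-depleted cells. JAG1 measured 34.5, 25.97 and 32.2 TPM in PI5P4K-depleted replicates 1 to 3, against 19.3, 16.6 and 21.9 TPM in controls. Every PI5P4K-depleted library lay above every control, with a mean 1.60 times that of controls (log2 difference 0.65, SE 0.15). JAG2 measured 13.4, 21.7 and 18.9 TPM in PI5P4K-depleted libraries and 8.70, 11.98 and 13.4 TPM in controls, where PI5P4K-depleted replicate 1 and control replicate 3 were nearly equal (log2 difference 0.61, SE 0.22). The ratio of the pair was alike in the groups, with JAG1 at 63.2% ± 8.81 of their sum in PI5P4K-depleted cells and 63.0% ± 5.46 in controls. Their sum was 48.9 ± 1.92 TPM in PI5P4K-depleted cells and 30.6 ± 4.06 TPM in controls.

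HES1, a transcriptional repressor and a common readout of Notch signalling, varied more among controls than any other of the 10 genes. It measured 27.6, 37.3 and 29.8 TPM in PI5P4K-depleted replicates 1 to 3, against 13.4, 30.6 and 15.4 TPM in control replicates 1 to 3. Control replicate 2 lay above 2 of the 3 PI5P4K-depleted libraries, and its removal moved the log2 difference to 1.07, against 0.72 (SE 0.29) with all libraries. The coefficient of variation was 16.1% in PI5P4K-depleted cells and 47.5% in controls. HEY1, a repressor of a related family, stayed low, at 1.20, 0.558 and 0.927 TPM in PI5P4K-depleted libraries and 0.781, 1.17 and 0.882 TPM in controls, with groups that overlapped.

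The HES1 promoter is shown because HES1 is a direct target of the Notch and RBPJ complex. The sequence is the 250 bases before the RefSeq start (GRCh38.p14, chr3:194135898-194136147, plus strand), written 5′ to 3′, with TGGGAA, the core of the site that RBPJ binds, in capitals.
HES1: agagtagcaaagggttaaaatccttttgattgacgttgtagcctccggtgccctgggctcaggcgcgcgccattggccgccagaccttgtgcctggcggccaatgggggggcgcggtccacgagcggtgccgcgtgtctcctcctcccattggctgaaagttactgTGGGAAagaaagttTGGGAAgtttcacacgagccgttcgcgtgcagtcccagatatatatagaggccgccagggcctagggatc
On a search of both strands the window held 2 matches, both on the gene's strand and starting 84 and 70 bases before the start. Of 35116 RefSeq promoters of the same length, 20.8% held at least 1 match and 2.90% held 2 or more. POGLUT1 held 1 match on the opposite strand, and KDELC2, KDELC1, NOTCH1, NOTCH2, NOTCH3, JAG1 and JAG2 held none in their windows. HEY1 had no matched promoter. Of other Notch target genes searched, HES5 and HEYL also held 2 matches, HES4 and HEY2 1, and HES2, HES7, NRARP and CDKN1A 0. HES5, HEYL and HEY2 were close to absent in all libraries. A match describes these letters and not a bound site.

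The genes with the pattern nearest to that of HES1, by the same measure, were SCNN1G, a subunit of the epithelial sodium channel (distance 0.19 log2 units), IER5L (0.43), SLC2A9, a urate transporter (0.44), COQ8A, which acts in coenzyme Q synthesis (0.46), and the antisense transcript VPS9D1-AS1 (0.47). SCNN1G measured 9.79, 13.7 and 9.86 TPM in PI5P4K-depleted replicates 1 to 3, against 4.06, 9.71 and 5.32 TPM in controls. None of the 5 passed limma's test across all genes (adjusted p between 0.156 and 0.619). The 5 were chosen for likeness to HES1 over these same libraries, so nothing is read from these test results.

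In controls the order of levels, in TPM, was NOTCH2 (34.4), KDELC2 (31.4), HES1 (19.8), JAG1 (19.2), KDELC1 (12.4), JAG2 (11.4), POGLUT1 (9.93), NOTCH1 (6.58), HEY1 (0.944) and NOTCH3 (0.207). Neighbours in this order had overlapping libraries from NOTCH2 to JAG1 and from KDELC1 to POGLUT1, and were separated between JAG1 and KDELC1 and at each step from POGLUT1 downwards. In PI5P4K-depleted cells KDELC2 was the lowest of the 10, below NOTCH3 in every library, and the order of the others began with NOTCH2, HES1 and JAG1, whose libraries overlapped from one to the next.

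Of 64 genes on 8 lists, chosen with earlier results of these data known, 50 passed the filter. Of these, 2 were called higher, 1 was called lower and 47 did not pass, or 6% called. Of all tested genes 2.19% were called (0.364% higher and 1.83% lower). An unadjusted p under 0.05 was found for 11 of the 50, where 11.9% of all tested genes had one, and groups that did not overlap for 17 of the 50, where 17.1% of all tested genes had such groups. The median log2 difference of the 50 was -0.03, beside -0.01 over all tested genes. The called genes were MYC and LTBP1, which were higher, and KDELR2, which was lower. The lists were not independent of these data, so nothing is read from shares above those of all tested genes.

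Enzymes that extend or add other sugars to EGF repeats gave 0 calls among 7 tested by limma, also at an unadjusted p under 0.05, with log2 differences between -0.36 and 0.20 and a median of -0.03. POFUT1, which attaches the O-fucose that fringe enzymes extend, had the highest mean over the 6 libraries of those that entered the fit, at 31.2 ± 2.10 TPM in PI5P4K-depleted cells and 30.9 ± 4.09 TPM in controls (log2 difference 0.02, 95% interval -0.26 to 0.30, limma adjusted p = 0.981). GXYLT1, which adds xylose to the O-glucose, measured 16.9 ± 1.40 TPM in PI5P4K-depleted cells and 17.6 ± 0.559 TPM in controls. XXYLT1, which adds the next xylose, measured 20.5 ± 1.90 TPM in PI5P4K-depleted cells and 19.3 ± 0.936 TPM in controls. LFNG, a fringe enzyme, lies in a stretch of chromosome 7 taken as lowered from earlier results of these data. It measured 4.14 ± 0.746 TPM in PI5P4K-depleted cells and 5.39 ± 1.58 TPM in controls (log2 difference -0.29, limma adjusted p = 0.710). GXYLT1, XXYLT1 and LFNG were chosen after their values were seen.

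Few other receptors and ligands were expressed. Of NOTCH4, DLL1, DLL3, DLL4, DLK1 and DLK2, 2 passed the filter and 0 were called, also at an unadjusted p under 0.05. DLK2, a noncanonical ligand, measured 9.21 ± 0.876 TPM in PI5P4K-depleted cells and 7.93 ± 3.02 TPM in controls (log2 difference 0.25, limma adjusted p = 0.803), and DLL3 2.13 ± 0.318 TPM in PI5P4K-depleted cells and 2.10 ± 0.813 TPM in controls. DLK1 was listed at 0 in all 6 libraries, and NOTCH4 was at 0 in 5 of them.

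The proteases that cut Notch receptors, the ligases and adaptors that move them, and the nuclear complex gave 0 calls by limma. Of 9 processing genes, 2 had an unadjusted p under 0.05, where 11.9% of all tested genes had one, and the median log2 difference was -0.10. APH1A, a gamma-secretase subunit and the most abundant, measured 107 ± 10.03 TPM in PI5P4K-depleted cells and 115 ± 7.79 TPM in controls (log2 difference -0.10, limma adjusted p = 0.796). ADAM17, a cell-surface protease picked once its values had been seen, measured 27.6 ± 3.22 TPM in PI5P4K-depleted cells and 20.6 ± 1.33 TPM in controls, with groups that did not overlap but an adjusted p of 0.214 by limma. Of 12 traffic genes 9 were tested, with 0 at an unadjusted p under 0.05 and a median of -0.03. ITCH, a ubiquitin ligase of Notch, measured 53.8 ± 5.17 TPM in PI5P4K-depleted cells and 50.8 ± 4.70 TPM in controls.

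Of the nuclear genes 8 of 9 were tested, 2 had an unadjusted p under 0.05, beside the same 11.9% of all tested genes, and the median was -0.08. Those 2, named for their values, were MAML1 and KAT2B, each with groups that did not overlap. MAML1 measured 24.5 ± 0.964 TPM in PI5P4K-depleted cells and 20.8 ± 0.493 TPM in controls. KAT2B measured 5.67 ± 0.229 TPM in PI5P4K-depleted cells and 8.19 ± 1.04 TPM in controls. Neither passed (limma adjusted p = 0.368 and 0.215). SNW1, a splicing and Notch cofactor and the most abundant, measured 76.5 ± 3.53 TPM in PI5P4K-depleted cells and 80.8 ± 2.36 TPM in controls (log2 difference -0.08, limma adjusted p = 0.795). RBPJ, the DNA-binding partner of Notch, also picked with its values known, measured 28.4 ± 2.86 TPM in PI5P4K-depleted cells and 30.6 ± 1.16 TPM in controls (log2 difference -0.11, limma adjusted p = 0.773).

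Among other target genes 6 of 10 were tested, with a median log2 difference of 0.29, 1 called higher and 5 that did not pass. MYC, a growth-promoting transcription factor, measured 109, 118 and 110.02 TPM in PI5P4K-depleted replicates 1 to 3, against 71.7, 76.3 and 72.1 TPM in controls (log2 difference 0.61, SE 0.08, limma adjusted p = 0.0110), and missed the threshold without PI5P4K-depleted replicate 3 (adjusted p = 0.0631) or control replicate 3 (adjusted p = 0.0675). CCND1, encoding cyclin D1, measured 171 ± 11.6 TPM in PI5P4K-depleted cells and 192 ± 21.2 TPM in controls (log2 difference -0.16, limma adjusted p = 0.660). HES5, HEY2 and HEYL, picked once their values had been seen, reached at most 0.149 TPM in any library.

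Proteins of the matrix that carry EGF repeats of the kind POGLUT2 and POGLUT3 modify were measured as the fibrillins and latent TGF-beta binding proteins. Of 7 genes 6 were tested, 1 was called higher and 5 did not pass, with a median log2 difference of -0.01, while 4 of the 6 had an unadjusted p under 0.05, where 11.9% of all tested genes had one. LTBP1, which anchors latent TGF-beta in the matrix, measured 114, 125 and 131 TPM in PI5P4K-depleted replicates 1 to 3, against 87.6, 89.1 and 88.3 TPM in controls. Every PI5P4K-depleted library lay above every control (log2 difference 0.47, SE 0.08, limma adjusted p = 0.0414), but the call was lost when any 1 of the 6 libraries was left out (adjusted p from 0.0618 to 0.186). LTBP2, the most abundant that did not pass, measured 43.2 ± 16.1 TPM in PI5P4K-depleted cells and 43.5 ± 14.2 TPM in controls. FBN1, a fibrillin picked once its values had been seen, measured 1.41, 0.962 and 1.87 TPM in PI5P4K-depleted libraries and 3.09, 2.61 and 4.87 TPM in controls, without overlap (log2 difference -0.89, limma adjusted p = 0.214).

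The KDEL receptors, which return proteins that end in KDEL-like signals from the Golgi to the endoplasmic reticulum, were lower in 1 of 3 cases by the test. KDELR2 measured 186, 167 and 195 TPM in PI5P4K-depleted replicates 1 to 3, against 448, 427 and 540 TPM in controls. The groups stood far apart (log2 difference -1.36, SE 0.12, limma adjusted p = 0.00442). KDELR2 lies in the stretch of chromosome 7 taken as lowered, whose bounds were chosen with earlier results of these data known. The part of that stretch in the fall of KDELR2 was not tested. KDELR3, on chromosome 22 and picked once its values had been seen, measured 27.05, 23.0 and 32.5 TPM in PI5P4K-depleted libraries and 46.8, 46.3 and 69.03 TPM in controls, without overlap, and did not pass (log2 difference -0.94, limma adjusted p = 0.0668). KDELR1 measured 146 ± 11.8 TPM in PI5P4K-depleted cells and 170 ± 25.3 TPM in controls (log2 difference -0.21, limma adjusted p = 0.607). The summed level of the 3 receptors was 324 to 386 TPM in PI5P4K-depleted libraries and 626 to 808 TPM in controls.

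**Figure D4:**
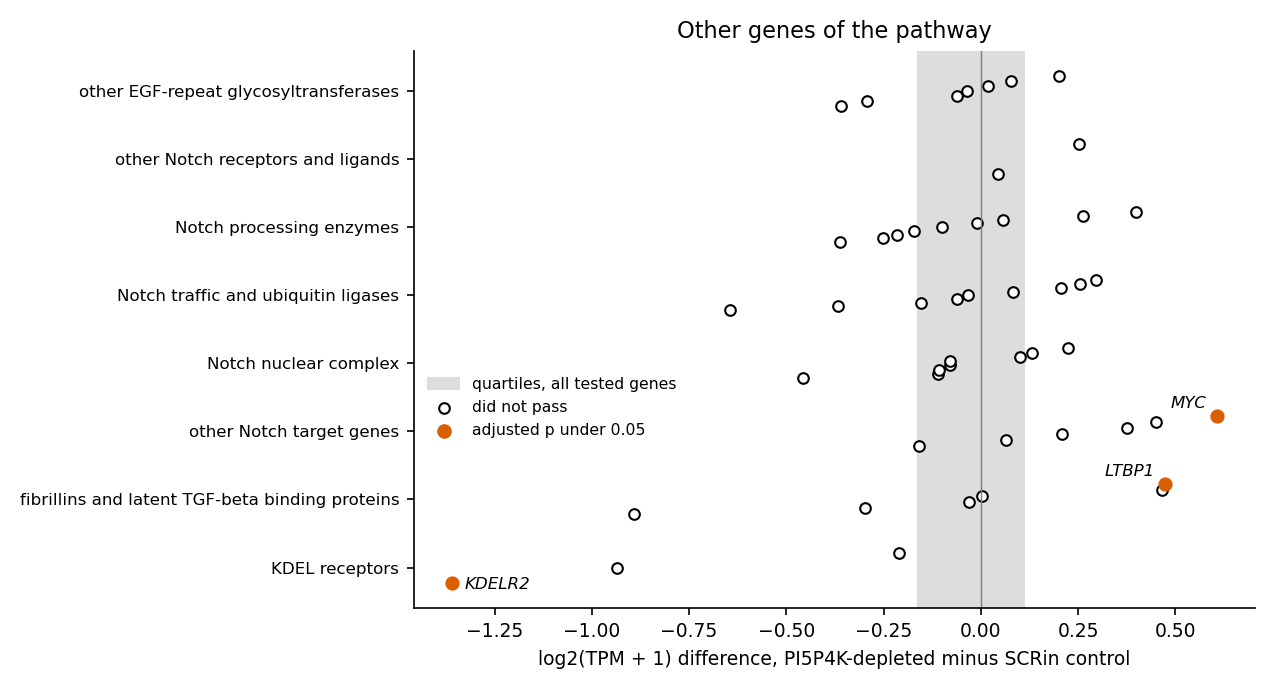
Difference of log2(TPM + 1), PI5P4K-depleted minus SCRin control, for each tested gene of the 8 pathway lists, with 1 point per gene and small vertical offsets for legibility. Filled points passed the threshold, namely MYC (0.61), LTBP1 (0.47) and KDELR2 (-1.36), and the grey band spans the quartiles of all tested genes, -0.16 to 0.11.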

How the data were processed

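Per the file's name and values, the authors deposited 1 table of TPM per gene symbol, with a column for each of the 6 libraries, and each deposited TPM column summed to 1000000. The 1 genome build named is hg19, per the submitters' processing notes. The sources used here do not say how reads were aligned, quantified, annotated or filtered. Columns headed Control were taken as the SCRin libraries and those headed expt, the only other group, as the PI5P4K-depleted (α-/-;βin) ones, by replicate number. TPM gives no read depth, so no counting interval is given, and an exact 0 can be a failed estimate.

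TPM was transformed to log2(TPM + 1), and the 12096 genes averaging 1 TPM or more over the 6 libraries were tested by limma 3.58.1 under R 4.3.3 (empirical Bayes moderation with a mean-variance trend, two-sided), with Benjamini-Hochberg adjustment over all tested genes and a threshold of 0.05. The script was tested on simulated data. Gene order, names and promoters came from RefSeq (GRCh38.p14), which matched 27010 of 27914 symbols and promoters of 9 of the 10 genes. Genes were named by rule: the 10 chosen genes, the 5 tested neighbours on each side of KDELC2, the 5 most alike patterns to KDELC2 and to HES1, up to 3 called genes per direction in each list, and the most abundant gene of each list that did not pass, by the mean over the 6 libraries. Other genes named were picked after their values were seen. The genes, the lists and the bounds of the lowered stretches were chosen with earlier results of these data known. A total of 14 alternatives was tried: other pseudocounts, filters and scalings, no trend, a replicate block and the removal of each library.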

Additional observations from a re-analysis of the deposited data

How the results depend on the processing

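The log2 difference of KDELC2 was -4.89 and followed the pseudocount, at -7.38 with 0.1 and -2.83 with 5, since the remaining level is near 0. It lay between -4.94 and -4.81 with a library left out. All 100 values for the other 9 genes under the alternatives moved by less than the spread between replicates, and NOTCH2 alone changed sign, with a range of -0.14 to 0.05. Other filters, no trend and the replicate block leave a log2 difference unchanged by design, so those of the 100 values could not move. NOTCH3 and HEY1 had a value only without the filter, so the count says nothing about them. The number of calls among all genes was 265, 881 with the replicate block and 106 to 219 with a library left out. The lowest numbers, 106, 119 and 163, came without control replicate 3, PI5P4K-depleted replicate 3 and PI5P4K-depleted replicate 1. Calls on the pathway lists numbered 3, 6 with the replicate block and 1 to 2 with a library left out (1 without replicate 3 of either group). The block added KDELR3, FBN1 and LTBP3 (limma adjusted p = 0.00316, 0.0446 and 0.0499), for which the highest adjusted p over the alternatives was 0.187, 0.535 and 0.382. Calls among the neighbours of KDELC2 numbered 0, and 1 with the replicate block, ACAT1 (limma adjusted p = 0.0331, 0.0331 to 0.668 over the alternatives). The block rests on replicate numbers that the labels do not tie to a shared culture or day. Same-numbered libraries deviated together for numbers 1 and 2 (correlation 0.25 and 0.27) and not for number 3 (-0.015). KDELR2 passed under all 14 alternatives, MYC under 12 and LTBP1 under 7. LTBP1 also missed the threshold without the mean-variance trend (limma adjusted p = 0.0798). Read depth is unknown, so how far the lowest levels, such as NOTCH3 and the remaining KDELC2, are set by counting error cannot be said.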
